A study of Homo sapiens with 6 samples.

Results

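ATP-binding cassette (ABC) transporters were examined in RNA-seq libraries of HK-2 cells, some of which received TGF-β1. HK-2 is a human kidney proximal tubule cell line that grows without limit, so the 6 libraries stand for 1 line and not for separate donors. The members were the genes whose approved symbol is ABC, a subfamily letter from A to G and a number, taken at their primary-chromosome entry. There were 45 such genes among the 41497 named entries of each library. Control cells were labelled wild type (WT) and had no TGF-β1, and the other cells were WT and had TGF-β1. Both groups were collected at 24 hours and had 3 libraries each. Per the labels, all cells were grown in DMEM-F12 with 10% fetal bovine serum, whereas the methods of the study give the TGF-β treatment as serum-free. The labels give no dose of TGF-β1 and do not say that the libraries of a group came from separate cultures, so the p-values measure the spread between these libraries, which may be technical.

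ABC transporters bind and split ATP in a pair of nucleotide-binding domains and use that energy to move a substrate across a membrane. In the proximal tubule they are known for pumping drugs, conjugates and organic anions into urine or blood, beside the organic ion carriers of the SLC families that take them up. The subfamilies differ in cargo. Most A members move lipids. The B and C members include drug and conjugate pumps, the D members serve the peroxisome and lysosome, the E and F members have no membrane domain and act on ribosomes, and the G members move sterols or drugs.

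The libraries held 21.9 to 26.9 megacounts (M), and 14860 genes passed a filter on low counts. A gene was called when its adjusted p was under 0.05 in edgeR's quasi-likelihood test with Benjamini-Hochberg adjustment over all 14860 genes. Under that rule 3294 genes were called higher and 3288 lower with TGF-β1, so 44.3% of all genes tested were called, 22.2% higher and 22.1% lower. At least 2-fold changes made up 3.68% of the genes tested for higher and 5.38% for lower. The 3 TGF-β1 values lay all above or all below the 3 control values for 55.6% of the genes. The TGF-β1 replicate 1 library stood apart from the other 5 on the second principal component, with a score of 26.9 against −15.1 to 9.41. All 6 genes listed as a check of the TGF-β1 response were called higher, among them with log2 fold changes of 1.64 for SMAD7, 1.56 for CCN2, 3.30 for COL1A1, 2.33 for TGFBI and 0.98 for FN1. Of 15 proximal tubule markers, LRP2 and SLC22A6 had no reads in any library, SLC22A8 had 2 and HNF4A had 1, whereas PAX8 had 17685 reads in controls and 10775 with TGF-β1. GGT1 had 5343 reads in controls and 3622 with TGF-β1, MME 382 and 253, AQP1 28 and 123, and CUBN 34 and 61. Some of the listed markers were thus at or near 0 in these HK-2 cells and others were not.

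Of the 45 members, 28 passed the filter, 10 had reads but too few, and 7 had none. TGF-β1 was followed by more falls than rises among the 28 tested. There were 12 members called lower, led by ABCA12, ABCB1 and ABCC3, and 5 called higher, among them ABCB8, ABCA1, ABCE1 and ABCF2. The called share was 60.7% beside 44.3% of all genes. The share called lower was 42.9% beside 22.1%, and the share called higher was 17.9% beside 22.2%. Of the 28, 5 fell at least 2-fold. All 17 called members and no other tested member had TGF-β1 values on 1 side of every control value, 5 above and 12 below. These were 60.7% of the 28, beside 55.6% of all genes tested. The median log2 fold change over the tested members was −0.19, beside 0.0063 over all genes tested. At least 10 reads were counted in every library for 27 of the 28 tested members, with ABCF1 the exception, so the filter did not let these 27 in through 1 group alone. In RNA of whole cultures, fewer cells that carry a transcript cannot be told apart from less of it per cell.

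**Figure D1:**
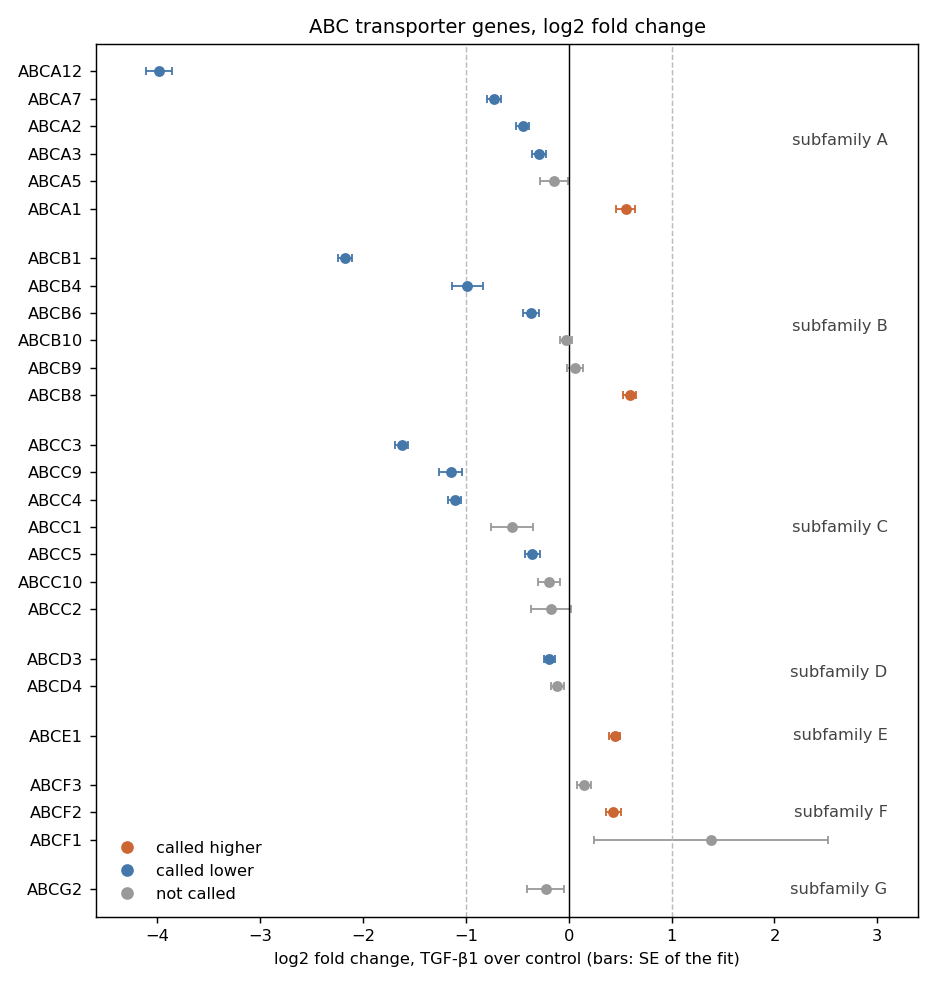
Log2 fold change of 26 of the 28 tested members, TGF-β1 over control, sorted within subfamilies A to G on the vertical axis; points are edgeR estimates, bars their standard error, colours the call, and dashed lines mark a 2-fold change. ABCA12 lies farthest to the left at −3.99, no member of subfamily C lies right of 0, and the wide bar of ABCF1 belongs to a gene with few reads.

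Among the pumps of drugs and conjugates, the called members all fell. Of the 13 members in this role, 8 were tested. Of these 8, 4 (50%) were called lower and none higher, beside 22.1% and 22.2% of all genes. The other 4 were not called, with log2 fold changes below 0, beside a median of 0.0063 over all genes tested. The 4 that fell were ABCB1, ABCC3, ABCC4 and ABCC5, and the median over the 8 was −0.45.

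ABCB1 encodes P-glycoprotein, the pump that expels many unrelated drugs from cells and sits in the brush border of the proximal tubule. The gene lies on the minus strand at chr7:87503017-87713295 (GRCh38). Its level was 153, 147 and 148 CPM (counts per megacount of the TMM-scaled library) in the 3 control libraries and 30.5, 32.6 and 36.2 CPM in the 3 TGF-β1 libraries. Every TGF-β1 value was far below every control value. The means were 149 ± 3.30 CPM (SD, n = 3) and 33.1 ± 2.88 CPM, and the log2 fold change was −2.17 with a standard error (SE) of 0.07, a 4.51-fold lower level (edgeR, adjusted p = 2.2e-09).

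ABCC3 encodes a conjugate pump of the basolateral membrane, which carries glucuronides, and lies on the plus strand at chr17:50634881-50692253 (GRCh38). It was at 59.8, 58.4 and 59.7 CPM in controls and at 20.1, 19.1 and 18.4 CPM with TGF-β1. The groups were separated by a gap wider than the spread in either. The log2 fold change was −1.62 (SE 0.06), or 3.08-fold lower (edgeR, adjusted p = 7.3e-09). ABCC4 exports cyclic nucleotides, urate and other organic anions, and lies on the minus strand at chr13:95019835-95301451. Its values were 81.6, 81.0 and 79.0 CPM in controls and 34.8, 39.2 and 37.9 CPM with TGF-β1, again with no overlap. TGF-β1 libraries differed by a log2 fold change of −1.11 (SE 0.06), or 2.16-fold lower (edgeR, adjusted p = 1.2e-07).

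ABCC5, which also exports cyclic nucleotides, fell less, by 0.36 on the log2 scale (SE 0.07; edgeR, adjusted p = 0.0027). ABCC10 had a log2 fold change of −0.19 (SE 0.11), ABCC2 of −0.17 (SE 0.20) and ABCG2, the breast cancer resistance protein, of −0.23 (SE 0.18). None of them was called. ABCC1, a pump of glutathione conjugates, was at −0.55 (SE 0.21) and was not called (edgeR, adjusted p = 0.0698). Its reads were divided between entries, as described further on, and on their sum it was called lower.

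**Figure D2:**
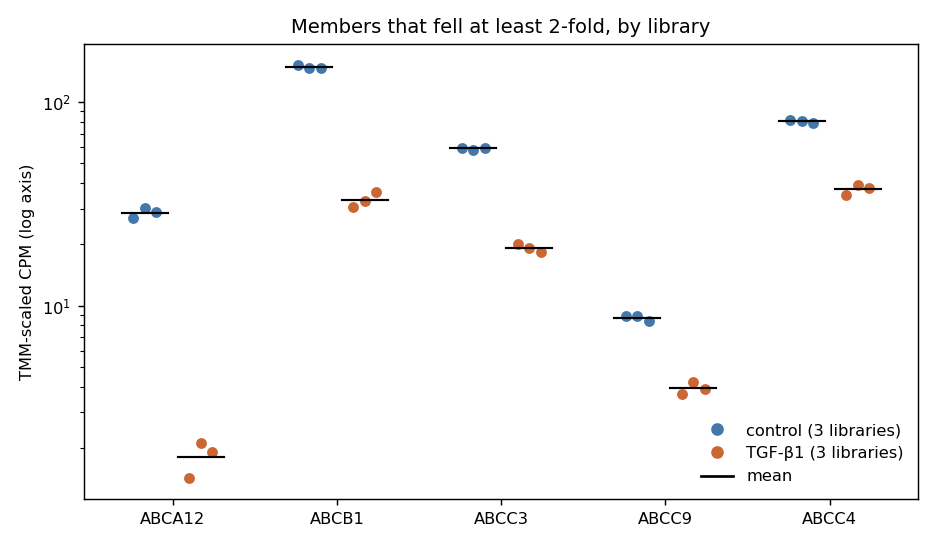
TMM-scaled CPM on a log axis for the 5 members that fell at least 2-fold, ordered from the largest fall; points are the 3 control and 3 TGF-β1 libraries and black lines the group means. In each gene the groups do not overlap, and ABCA12 lies lowest with TGF-β1, from 1.42 to 2.11 CPM.

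Most tested lipid exporters fell, but ABCA1, the most abundant of them, rose. Of 17 members with this role, 7 were tested, with a median of −0.45. Of these 7, 5 (71.4%) were called lower and 1 (14.3%) higher, beside 22.1% and 22.2% of all genes. Those called lower were ABCA12, ABCB4, ABCA7, ABCA2 and ABCA3. ABCA1 was called higher, and ABCA5 was at −0.14 and was not called.

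ABCA12 loads glucosylceramides into the lamellar granules of skin keratinocytes. It lies on the minus strand at chr2:214931542-215138626 (GRCh38). It was measured at 26.9, 30.2 and 28.9 CPM in controls and at 1.42, 2.11 and 1.91 CPM with TGF-β1. The TGF-β1 libraries were low without exception. The log2 fold change of −3.99 (SE 0.12), a 15.9-fold lower level, was the largest in size of all tested members (edgeR, adjusted p = 2.1e-09).

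ABCA1 hands cellular cholesterol and phospholipid to apolipoprotein A-I at the cell surface. It lies on the minus strand at chr9:104781006-104928155 (GRCh38). Its values were 234, 245 and 252 CPM in controls and 303, 387 and 382 CPM with TGF-β1. All TGF-β1 libraries were higher, and replicate 1 was the lowest of them. The log2 fold change was 0.55 (SE 0.09), or 1.47-fold higher (edgeR, adjusted p = 6.7e-04).

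ABCB4, which flips phosphatidylcholine into bile in the liver, fell by 0.99 on the log2 scale (SE 0.15; edgeR, adjusted p = 3.3e-04). Its exons share 807 bases, or 9.87% of its length, with exons of CROT on the opposite strand, and the sources used here do not say whether counting used strand. CROT had 954 reads in controls and 681 with TGF-β1. ABCA7, a phospholipid exporter close to ABCA1 in sequence, fell by 0.73 (SE 0.07; edgeR, adjusted p = 8.6e-06). ABCA2, a lysosomal lipid transporter best known from brain, fell by 0.45 (SE 0.06; adjusted p = 1.8e-04 in edgeR). ABCA3, which packs surfactant lipid in the lung, fell by 0.29 (SE 0.07; adjusted p = 0.0044 in edgeR).

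Promoter stretches of 4 members are shown here as members called in both directions, with ABCB1 and ABCA12 having the largest falls and ABCA1 and ABCB8 among the rises. Each stretch is the 150 bases just before a start site, taken from RefSeq (GRCh38.p14) and written 5′ to 3′ on the strand of the gene. Capitals mark any match, on either strand, to the CCAAT box (CCAAT), the GC box (GGGCGG), the TATA box (TATAAA), the E-box (CACGTG), the AP-1 site (TGANTCA) or a SMAD-type element (CAGACA).
ABCB1, inner start, chr7:87600885-87601034, minus strand: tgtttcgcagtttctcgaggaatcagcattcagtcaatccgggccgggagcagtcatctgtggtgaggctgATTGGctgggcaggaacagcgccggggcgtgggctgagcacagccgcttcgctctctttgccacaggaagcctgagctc
ABCB1, outer start, chr7:87713296-87713445, minus strand: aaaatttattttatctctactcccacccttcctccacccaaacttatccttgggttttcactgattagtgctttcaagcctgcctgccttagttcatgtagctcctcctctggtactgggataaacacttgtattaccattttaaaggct
ABCA12, outer start, chr2:215138627-215138776, minus strand: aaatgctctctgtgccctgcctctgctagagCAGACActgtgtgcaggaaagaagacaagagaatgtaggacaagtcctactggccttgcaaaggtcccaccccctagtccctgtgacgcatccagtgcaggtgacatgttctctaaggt
ABCA12, inner start, chr2:215032087-215032236, minus strand: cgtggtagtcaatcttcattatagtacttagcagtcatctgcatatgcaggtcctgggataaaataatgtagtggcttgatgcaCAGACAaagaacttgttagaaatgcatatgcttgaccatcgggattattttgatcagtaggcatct
ABCA1, chr9:104928156-104928305, minus strand: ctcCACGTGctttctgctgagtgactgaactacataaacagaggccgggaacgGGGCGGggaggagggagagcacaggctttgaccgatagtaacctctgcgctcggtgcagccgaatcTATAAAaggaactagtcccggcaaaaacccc
ABCB8, chr7:151028300-151028449, plus strand: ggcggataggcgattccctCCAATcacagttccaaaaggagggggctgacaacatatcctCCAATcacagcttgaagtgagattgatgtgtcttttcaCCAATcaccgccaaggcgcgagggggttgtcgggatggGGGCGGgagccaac

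The ABCB1 stretch at the inner start holds 1 CCAAT box in reverse orientation, 79 bases before the start, and the stretch at the outer start holds none of the 6 motifs. The reads were counted per gene, so they do not say which start was used. ABCA1 holds a TATA box 31 bases, a GC box 97 bases and an E-box 147 bases before its start. ABCB8 holds 3 CCAAT boxes, at 52, 90 and 131 bases, and a GC box at 14 bases. Each of the 2 stretches of ABCA12 holds 1 SMAD-type element, 119 bases before the outer start and 66 bases before the inner start.

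RefSeq windows of 300 bases, from 250 before to 50 after a start, were found for 35 of the 45 members, and they came to 53 windows. A SMAD-type element was in 15.1% of them and in 16.9% of all 35116 windows of the table. A CCAAT box was in 22.6% beside 34.6%, a GC box in 47.2% beside 45.0%, and a TATA box in 15.1% beside 11.5%. An E-box was in 17.0% beside 7.26%, and an AP-1 site in 11.3% beside 7.71%. Of the members called lower, 10 had a window, and 2 of these held a SMAD-type element. Of the members called higher, 4 had a window and none held one. These are letter matches in the given windows. No motif contains another. Members with several start sites count more than once among the windows.

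The transporters of mitochondria, peroxisomes and lysosomes were called in both directions at shares near those of all genes. Of 9 members, 8 were tested, 2 (25%) were called higher and 2 (25%) lower, beside 22.2% and 22.1%, and the median of 0.017 was near that of all genes. The called members described here are ABCD3, ABCB8 and ABCB6.

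ABCD3, the peroxisomal membrane protein that imports branched-chain and dicarboxylic acyl-CoA, was the most abundant member of its subfamily. It was at 111, 108 and 113 CPM in controls and 91.8, 99.3 and 100.2 CPM with TGF-β1. The groups did not overlap, but the distance was small. It fell by 0.19 on the log2 scale (SE 0.06; edgeR, adjusted p = 0.0165). Leaving out control replicate 1 raised the adjusted p to 0.0552 and leaving out control replicate 3 raised it to 0.0618, so either ended the call.

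ABCB8, of the inner mitochondrial membrane, rose by 0.59 (SE 0.06; edgeR, adjusted p = 2.4e-05). ABCB6, which has been placed in mitochondria and lysosomes and binds porphyrins, fell by 0.37 (SE 0.08; edgeR, adjusted p = 0.0035). ABCB10, which takes part in haem synthesis, had a log2 fold change of −0.027 and was not called. ABCB9, a lysosomal peptide transporter, was at 0.061, and ABCD4, which takes part in lysosomal cobalamin release, at −0.11, and neither was called.

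ABCC9 is not a pump but the sulfonylurea receptor that surrounds a potassium channel pore, and lies on the minus strand at chr12:21797389-21941863. It was at 8.95, 8.87 and 8.39 CPM in controls and 3.69, 4.22 and 3.92 CPM with TGF-β1, with no overlap. This was a log2 fold change of −1.15 (SE 0.11), or 2.22-fold lower (edgeR, adjusted p = 1.3e-05). ABCC8, its counterpart of pancreatic beta cells, had no reads.

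No member without a membrane domain was called lower, beside 22.1% of all genes. Of 4 tested, 2 (50%) were called higher, beside 22.2%. The 4 include ABCF1, which had few reads. ABCE1 splits ribosomes after translation ends, and lies on the plus strand at chr4:145098311-145129524. It was at 279, 286 and 284 CPM in controls and 371, 397 and 388 CPM with TGF-β1, and every TGF-β1 library was higher. The log2 fold change was 0.45 (SE 0.05), or 1.36-fold higher (edgeR, adjusted p = 4.1e-05). ABCF2 rose by 0.43 (SE 0.07; edgeR, adjusted p = 7.4e-04). It shares 1953 exon bases on the same strand with the readthrough gene ABCF2-H2BE1, which had 2 reads in controls and 5 with TGF-β1.

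ABCF3 was the most abundant member of subfamily F at the primary entries, where the level of ABCF1 is uncertain. It was at 47.9, 43.4 and 41.9 CPM in controls and 51.1, 49.6 and 47.03 CPM with TGF-β1. The ranges overlapped, and the log2 fold change of 0.15 was not called (edgeR, adjusted p = 0.0953). ABCF1 had the widest error of all, at 1.38 (SE 1.14; edgeR, adjusted p = 0.39), from 6 to 73 reads in a library. The value of 1.38 gives no direction for ABCF1, since it was −0.25 without TGF-β1 replicate 3.

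Subfamily A had 4 members (66.7%) called lower and 1 (16.7%) higher of 6 tested, beside 22.1% and 22.2% of all genes. Its median log2 fold change was −0.37. Subfamily B had 3 (42.9%) lower and 1 (14.3%) higher of 7, with a median of −0.027. Subfamily C had 4 (57.1%) lower and none higher of 7, with a median of −0.55, the value of ABCC1 at its primary entry. That median was −0.36 without control replicate 1 and also with entries summed, where that of subfamily A was −0.36 and −0.37. In subfamily D, ABCD3 was called lower and ABCD4 was not called. The only member of subfamily E rose, and subfamily F had 1 called higher of 3, with a median of 0.43. In subfamily G only ABCG2 was tested, with 2.13, 1.92 and 2.39 CPM in controls and 1.88, 1.57 and 2.05 CPM with TGF-β1, values that overlapped. Members of a subfamily are not replicates, and the difference between subfamilies was not tested.

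Levels were compared between genes in TPM, which divide by gene length and express each gene as a share of the library. In controls ABCE1 came first at 242 ± 6.80 TPM (SD, n = 3). ABCB1 at 86.5 ± 1.27 TPM and ABCD3 at 85.2 ± 3.11 TPM followed and did not differ beyond their spread, and ABCA1 came next at 78.0 ± 4.26 TPM. ABCF3 was at 51.8 ± 2.78 TPM. ABCC3 and ABCC4, at 34.05 ± 0.778 and 33.9 ± 0.133 TPM, overlapped each other. With TGF-β1 the order was ABCE1 at 304 ± 18.8 TPM, ABCA1 at 106 ± 16.7 TPM, ABCD3 at 68.9 ± 5.08 TPM and ABCF3 at 52.9 ± 1.74 TPM. ABCB1 had moved from rank 2 to rank 11, at 17.7 ± 1.88 TPM. Its range there overlapped those of ABCF2, just above it, and ABCC5, just below it, so its exact rank is not resolved. The ABCA1 to ABCB1 ratio was 0.844, 0.919 and 0.941 in the control libraries and 5.47, 6.54 and 5.81 in the TGF-β1 libraries, on the TPM scale.

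**Figure D3:**
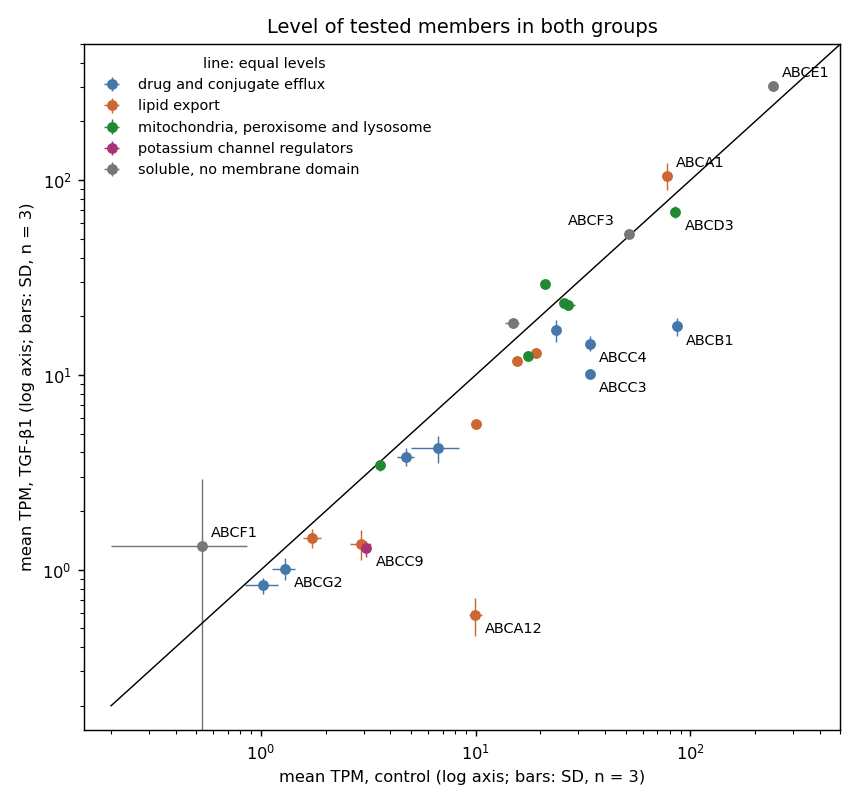
Mean TPM with TGF-β1 against mean TPM in controls for 26 of the 28 tested members, both axes logarithmic, with SD bars (n = 3), colours by role and a line of equal levels. ABCB1, ABCC3, ABCC4 and ABCA12 lie well below the line, ABCA1 above it, and the lower bar of ABCF1 runs off the axis because its SD exceeds its mean.

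The summed level of the family was 864 ± 15.5 TPM in controls and 798 ± 48.8 TPM with TGF-β1 (SD, n = 3), ranges that did not overlap. Its make-up differed more than its sum. Drug and conjugate pumps held 22.2% of the family's TPM in controls and 8.68% with TGF-β1. Their sum was 193, 189 and 193 TPM in the control libraries and 63.3, 70.5 and 74.2 TPM in the TGF-β1 libraries. The members without a membrane domain held 35.8% and 47.2%, with sums of 309 ± 2.99 and 377 ± 20.1 TPM. The lipid exporters summed to 138 ± 5.66 and 139 ± 17.6 TPM. Within that sum ABCA1 was called higher and 5 members were called lower, as given above. ABCA1 was 9.02% of the family in controls and 13.2% with TGF-β1, whereas ABCB1 was 10.02% and 2.22%. TPM values are shares of a whole library and are not TMM-scaled. Without TMM the median log2 fold change over all genes was −0.10, so a gene at that median is a little lower with TGF-β1 on the TPM scale.

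**Figure D4:**
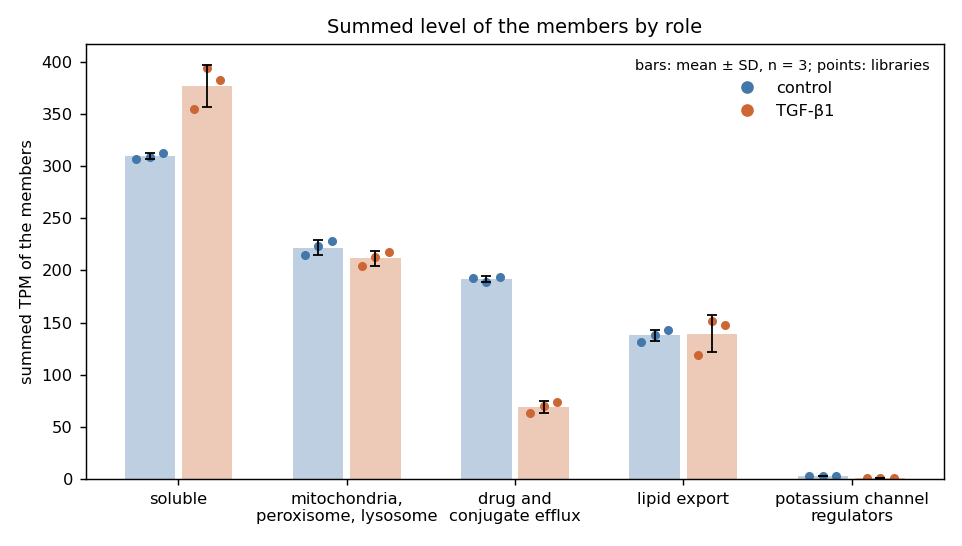
Summed TPM of the members in each role, in control and TGF-β1 libraries; bars are means with SD (n = 3) on an axis from 0 and points are single libraries. Drug and conjugate efflux is the role in which the groups lie farthest apart, at 192 and 69.3 TPM, while lipid export lies at 138 and 139 TPM.

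The tables list 54 entries for the 45 members, since 9 lie on alternate contigs, which are second versions of parts of the genome. They belong to ABCB11, ABCC1, ABCC6 and ABCF1. A read that matches the gene and its copy can be put on either, so the level of these genes at the primary entry is uncertain. For ABCC1, the primary entry had 421, 345 and 255 reads in controls and 243, 213 and 244 with TGF-β1. It held 52.9% of the summed ABCC1 reads in control replicate 1 and 28.6% to 34.8% in the other 5 libraries. Summed over both entries, ABCC1 was at 38.3 ± 3.20 CPM in controls and 29.7 ± 3.33 CPM with TGF-β1 (SD, n = 3). The summed reads gave a log2 fold change of −0.37 (SE 0.09) and were called lower (edgeR on summed entries, adjusted p = 0.0064). In that fit 45.2% of 14658 names were called, and 18 of 29 members, 5 higher and 13 lower.

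For ABCF1, a translation factor of the ribosome, 7 entries shared the reads. The primary entry held 6.44% of them in control replicate 1 and 57.5% in TGF-β1 replicate 3. An entry on an alternate contig held 280 reads in control replicate 1 and 17 to 26 in each of the other libraries. The summed log2 fold change was −0.70 (SE 0.97; edgeR on summed entries, adjusted p = 0.61), opposite in sign to the primary entry. For ABCC6, which is mutated in pseudoxanthoma elasticum, the primary entry held 2.08% to 15.2% of the reads. Its sum was 2.34 ± 0.604 CPM in controls and 2.05 ± 0.130 CPM with TGF-β1 (SD, n = 3), and it was not called (edgeR on summed entries, log2 fold change −0.20, adjusted p = 0.46).

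**Figure D5:**
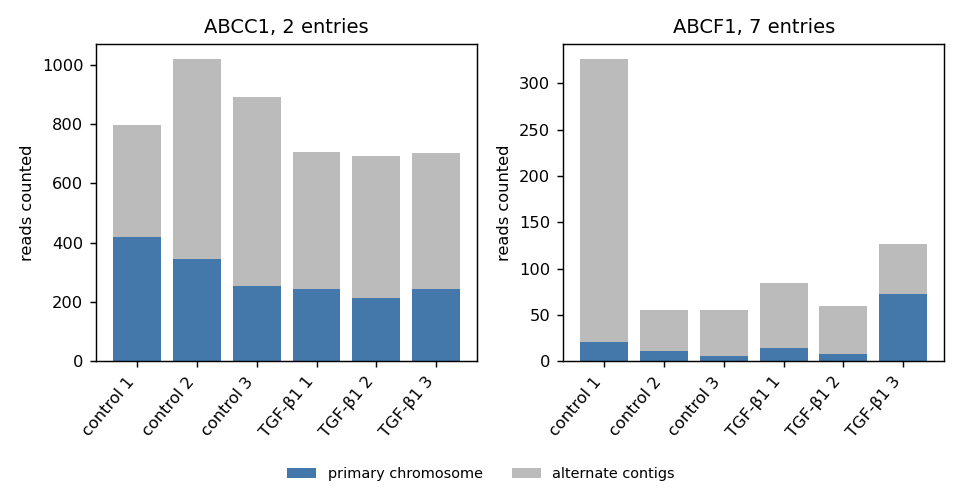
Reads counted per library for ABCC1 and ABCF1, stacked by primary chromosome and alternate contigs, on axes from 0. The primary share of ABCC1 is largest in control 1, and ABCF1 has 326 reads in control 1, most of them on alternate contigs.

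The 17 members under the filter were counted by reads summed over the 3 libraries of a group. ABCA4, the retinoid transporter of photoreceptors, had 34 reads in controls and 6 with TGF-β1, a depth-scaled ratio of 0.175 (95% exact binomial interval 0.0600 to 0.421). All 3 TGF-β1 libraries lay below all controls, and the exact two-sided permutation test gave p = 0.1, the smallest that 3 against 3 allows. ABCA13 had 9 and 1 reads, a ratio of 0.110 (0.0025 to 0.794). ABCG5, which with ABCG8 exports plant sterols, had 14 and 5 reads, a ratio of 0.354 (0.0997 to 1.04). The intervals cover counting error only.

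ABCC6 at its primary entry had 9 reads in controls and 13 with TGF-β1, ABCC11 had 6 and 5, ABCG4 had 3 and 5, and ABCA10 had 2 and 2. ABCD2 had 0 and 2, ABCC12 had 2 and 0, and ABCB5 had 1 and 0. ABCA6, ABCA8, ABCA9, ABCB11, ABCC8, ABCG1 and ABCG8 had no reads in any library. ABCB11 is the bile salt export pump of the liver, and ABCG1 passes cholesterol to HDL in macrophages. No reads in 141.7 M allow a level of up to 0.0212 CPM. Of subfamily G, therefore, only ABCG2 was measured well enough for a test.

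Several members are neighbours in the genome. ABCB4 and ABCB1 lie 26.3 kb apart on the same strand of chromosome 7, and both were called lower. ABCC1 and ABCC6 lie 6.50 kb apart on chromosome 16 in opposite orientation. ABCC12 and ABCC11 lie 8.85 kb apart on the same chromosome, and neither was tested. On chromosome 17, ABCA8, ABCA9, ABCA6, ABCA10 and ABCA5 follow each other on the minus strand, and ABCA5 was the only 1 of them with enough reads for a test.

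Genes that work with the family were read from lists. Of 16 tested genes of sterol sensing and lipid acceptance, 3 (18.8%) were called higher and 4 (25%) lower, near the 22.2% and 22.1% of all genes. NR1H3, a liver X receptor that drives ABCA1 transcription, rose by 0.58 (SE 0.17; edgeR, adjusted p = 0.0177), whereas the related receptor NR1H2 was at 0.12 and was not called. Whether NR1H3 took part in the rise of ABCA1 was not tested. NPC1, which releases cholesterol from lysosomes, fell by 1.25 (SE 0.06; edgeR, adjusted p = 2.5e-08). Of 16 tested genes of xenobiotic sensing and glutathione conjugation, 4 (25%) were called higher and 5 (31.2%) lower, beside the same 22.2% and 22.1%.

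AHR, the receptor of aromatic hydrocarbons, fell by 0.87 (SE 0.05; edgeR, adjusted p = 3.3e-07). NFE2L2, the regulator of the antioxidant response, was at −0.073 and was not called. NR1I2, the pregnane X receptor that drives ABCB1 transcription in liver and gut, had 2 reads in controls and 0 with TGF-β1. NR1H4, the bile acid receptor, had 109 reads in controls and 3 with TGF-β1, and was called lower (edgeR, adjusted p = 1.6e-06). It passed the filter on low counts through the control libraries alone. Its depth-scaled read ratio was 0.0273, with a 95% exact binomial interval from 0.0055 to 0.0818.

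Of 18 organic ion and drug carriers of the SLC families, 7 were tested. Of these 7, 1 (14.3%) was called higher and 4 (57.1%) lower, beside 22.2% and 22.1% of all genes. The carrier that rose was SLCO2A1, a prostaglandin transporter, by 1.03 (SE 0.07; edgeR, adjusted p = 8.7e-07). SLCO4A1 fell by 1.41 (SE 0.07; edgeR, adjusted p = 3.9e-08) and SLCO4C1 fell by 1.61 (SE 0.26; edgeR, adjusted p = 5.2e-04). Of 12 tested partner proteins of ABC transporters, among them peroxins and ribosome rescue factors, 5 were called higher and 1 lower, all by less than 2-fold. These partners were called higher at 41.7%, beside 22.2% of all genes, and lower at 8.33%, beside 22.1%. Their called share was 50%, beside 44.3% of all genes. TAP1 and TAP2, the peptide transporters of antigen presentation, and CFTR belong to the family under other symbols. At their primary entries TAP1 had 0 reads in controls and 40 with TGF-β1, TAP2 had 10 and 7, and CFTR had 1 and 1. The 40 TAP1 reads all lay in 1 TGF-β1 library, so the mean of that group was 0.637 ± 1.10 CPM (SD, n = 3). TAP1 and TAP2 had 8 entries each, so these counts are uncertain, and none of the 3 was tested.

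Markers of cell types were summed in each library. The 15 proximal tubule markers summed to 317 to 350 CPM in controls and 198 to 230 CPM with TGF-β1, mostly from PAX8 and GGT1. Of the 7 tested, 4 (57.1%) were called lower and 2 (28.6%) higher, beside 22.1% and 22.2% of all genes. Among them AQP1 rose by 2.10 on the log2 scale, from 28 to 123 reads per group, and CDH16 fell by 1.27, from 141 to 59 reads. The 6 fibroblast markers summed to 59.9 to 69.3 CPM and 58.2 to 59.7 CPM, mostly from LUM, so the sum does not show the other members. All 4 tested were called, 2 (50%) higher and 2 (50%) lower, beside 22.2% and 22.1% of all genes. PDGFRB was higher by 3.38 (39 reads in controls and 413 with TGF-β1) and COL6A3 by 3.71 (8 and 110 reads). THY1 was lower (63 and 19 reads, log2 fold change −1.72), as was LUM (−0.28). COL6A3 passed the filter on low counts through the TGF-β1 libraries alone and THY1 through the control libraries alone. Of those not tested, PDGFRA was at 2 reads in controls and 4 with TGF-β1 and DCN at 9 and 12. The 6 endothelial markers summed to 0.940 to 1.68 CPM in controls and 0 to 0.143 CPM with TGF-β1. Only CDH5 was tested, and it was called lower, with 62 reads in controls and 0 with TGF-β1. It passed the filter through the control libraries alone. PECAM1 had 14 and 0 reads, VWF 4 and 0, TEK 6 and 3, and KDR and EMCN 0 and 1 each. The 6 immune markers summed to 95.3 to 104 CPM and 61.5 to 85.4 CPM, nearly all from CD68. Both tested members were called lower, beside 22.1% of all genes, with CD68 at −0.44 and CD14 at −1.72 (179 and 55 reads). CD3E and TYROBP had no reads and PTPRC had 2 in each group. The part of these differences in the change of the members was not tested.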

How the data were processed

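Poly(A) mRNA of HK-2 cells was sequenced as paired reads after reverse transcription with random hexamers, and the authors removed adapters and low-quality reads. The deposited tables hold raw counts per gene, next to TPM and FPKM as the authors calculated them. TPM served for levels between genes, and FPKM was not used further. The submitters' processing notes name CASAVA, featureCounts 2.0.1, DESeq2 1.16.1 and hg38, and the aligner and the use of strand are not given in the sources used here. Each table had 42095 entries and 7 records broken over lines, which were rejoined. The 598 entries without a gene name, 0.396% to 0.464% of counts, were left out.

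Groups followed the treatment label. Counts were filtered with filterByExpr (minimum count 10), TMM-scaled and compared with the edgeR 4.0.16 quasi-likelihood F test (two-sided, robust; R 4.3.3, limma 3.58.1). Benjamini-Hochberg adjustment covered all 14860 genes that passed, and calls were made under 0.05. The SE was the log2 fold change divided by the square root of F. Members under the filter were compared by exact permutation of CPM, with a smallest p of 0.1, and by exact 95% binomial intervals of read ratios (scipy 1.17.1, pandas 2.3.3, Python 3.11.15). A count of 0 was given the limit of 3 counts. Intervals and limits cover counting error only, since PCR copies could not be told from molecules.

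All members were counted, and some items are not reported here. Values of every library were given for members called with at least a 2-fold change and for the most abundant member of each subfamily. Other genes were named from lists, where called at least 2-fold, as receptors of sterols and xenobiotics or as family members under other symbols. Other genes were named only to describe a marker or check list. The members and lists were chosen with earlier results of these data known. The test was checked on simulated counts. No 2 libraries of a group were duplicates, with a chi-square per degree of freedom of at least 4.33. Alternatives were DESeq2 1.42.0, RLE size factors, total counts only, no filter beyond 1 count, a mean of at least 50 counts, a replicate block, leaving out each library and summing entries of a name.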

Additional observations from a re-analysis of the deposited data

Results flagged for a closer look

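An entry of ABCF1 outside the member rule was picked for being called higher with all TGF-β1 values above all controls. Its call and separation are thus the rule of choice and not support. This entry, on an alternate contig, had 7, 8 and 3 reads in controls and 19, 11 and 12 with TGF-β1. Its log2 fold change was 1.19 (edgeR, adjusted p = 0.0352). Another alternate entry, with 280 reads in control replicate 1, was at −2.35 and was not called (edgeR, adjusted p = 0.23). The primary entry was at 1.38 and was not called (edgeR, adjusted p = 0.39). The sum over 7 entries was at −0.70 and was not called either (edgeR on summed entries, adjusted p = 0.61).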

How the results depend on the processing

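Of the 28 tested members, 20 kept both sign and call under all 13 alternatives, of which 6 left out 1 library. Of the 17 called members 16 kept their call under all of them, and the exception was ABCD3, whose log2 fold change of −0.19 had an adjusted p of 0.0552 without control replicate 1 and 0.0618 without control replicate 3 (edgeR). With scaling by total counts only, the median of all genes moved to −0.10, and 2134 genes were called higher and 4590 lower, in place of 3294 and 3288. Members then came to 5 higher and 15 lower, since ABCC1, ABCC10 and ABCD4 were also called lower, and ABCB9 turned to −0.046. The medians of the subfamilies were −0.48 for A, −0.13 for B, −0.22 for D, 0.34 for E and 0.33 for F on that scale. With all genes that had a count they were −0.44 for A, −0.19 for B and 0.46 for D, in which ABCD2 with its 2 reads was included. With a mean of at least 50 counts they were −0.39 for A and 0.27 for F, and G had no value. Leaving out each library gave −0.39 to −0.35 for A, −0.72 to −0.36 for C and 0.18 to 0.51 for F. The C median, −0.55 as reported, was −0.66 with total counts, −0.45 with all genes that had a count and −0.36 with summed entries, and A was the lower of the pair without control replicate 1 and with summed entries. Summing entries gave 0.15 for F, with ABCF1 at −0.70. Leaving out 1 library gave −0.25 for ABCF1 without TGF-β1 replicate 3 and up to 1.99 without control replicate 1. ABCC1 was also called lower with DESeq2, without control replicate 3 and with summed entries. ABCF3 was called higher without control replicate 1. The causes of these differences were not tested. Correlations of the deviations were 0.111, −0.012 and 0.076 for replicate numbers 1, 2 and 3. With 3 numbers these cannot settle whether the numbers pair the libraries. With the replicate block 5 members were called higher and 12 lower, and of all genes 3396 were higher and 3394 lower. Few or no reads limit the 17 members under the filter. For ABCC6, which is 1 of these, and for ABCF1, the reads were spread over entries.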
